A study of Mus musculus with 3 samples.

Results

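The genes described here are 8 widely used readouts of the transcriptional regulators YAP and SRF, namely Ccn1, Ccn2, Ankrd1, Amotl2, Lats2, Srf, Vcl and Fhl2. They were taken by symbol, each represented by the probe set that the array annotation ties to that symbol alone, with the highest mean over the arrays where a gene had several. All 8 were found, with 1 such probe set each, among 19938 genes measured. Kidneys of C57BL/6 mouse embryos at embryonic day 11.5 were cultured on Transwell filters for 48 h in serum-free DMEM with retinoic acid, in serum-free DMEM without it, or in DMEM with 10% fetal bovine serum. The 3 media are called retinoic acid, serum-free and serum. Each medium had 1 array, an Affymetrix Mouse Gene 1.0 ST, so serum is absent from both of the first media and retinoic acid was added to only 1 of them. The sources used here do not give the dose of retinoic acid or the number of kidneys behind each array.

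YAP and its relative TAZ are coactivators that the kinases of the Hippo pathway, LATS1 and LATS2, phosphorylate and hold out of the nucleus. When they are free to enter it, they bind TEAD transcription factors and switch on genes such as Ccn1 and Ccn2. SRF binds a DNA element called the CArG box and works with cofactors, among them the MRTF proteins, which monomeric actin holds back and polymerised actin releases. Serum contains lipids that act through the actin cytoskeleton on both regulators in cultured cells. In the mouse kidney, YAP in nephron progenitors is needed to form nephrons, and mice without TAZ develop kidney cysts.

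Values are deposited intensities on the log2 scale unless called intensities. With 1 array per medium no value has a replicate, no difference has an error or a p-value, and every statement describes these 3 arrays. The size rule was a difference of at least 2-fold with the larger value at or above a floor of 7.12, the median of all gene-level values. The median intensity over all probe sets was 84.7, 85.5 and 81.5 with retinoic acid, in serum-free medium and in serum. All 10 kidney markers examined, among them Pax2, Wt1, Six2 and Ret, lay at or above the floor on every array.

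**Figure D1:**
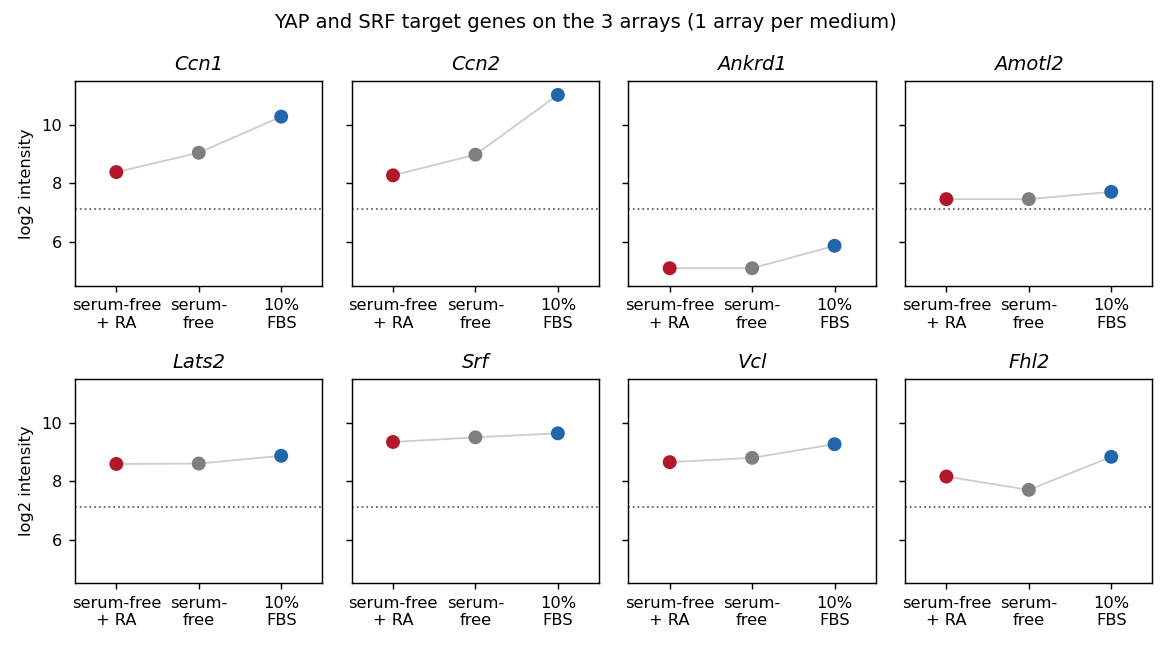
Log2 intensity of each gene (vertical axis) on the retinoic acid, serum-free and serum array (left to right, 1 point per array). The dotted line is the floor of 7.12. All 8 genes have their highest value in serum, and Ankrd1 lies under the floor throughout.

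Without serum, all 8 genes were lower than with it, and 3 of them, Ccn2, Ccn1 and Fhl2, by at least 2-fold. Ccn2 had the largest difference of the 8, at 4.13-fold lower in serum-free medium. With retinoic acid in the serum-free medium, Ccn2 and Ccn1 were lower still, while Fhl2 was nearer to its serum level. Against serum, the retinoic acid array had 2 of the 8 genes at least 2-fold lower, Ccn2 at 6.74-fold and Ccn1 at 3.72-fold. In RNA of whole explants, fewer cells of a type and less RNA per cell cannot be told apart. The 3 comparisons are built from the same 3 arrays and are not independent of each other.

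The share of all genes at or above the floor that met the same rule was small. In serum-free medium against serum, 3 of the 8 were lower by that size and 0 higher, against 0.699% and 0.876% of 10156 genes. Between retinoic acid and serum-free medium, 0 of the 8 were lower and 0 higher, against 0.613% and 1.05% of 10111 genes. With retinoic acid against serum, 2 of the 8 were lower and 0 higher, against 0.816% and 1.04% of 10169 genes. A difference of any size below 0 was found for 8 of the 8 in serum-free medium against serum, where 51% of genes had one, and for 5 of the 8 in retinoic acid against serum-free medium, where 35.1% did. The floor left out Ankrd1 on every array, and the other 7 genes passed it on every array. Ankrd1 is therefore counted among the 8 but is not among the genes behind these percentages.

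**Figure D2:**
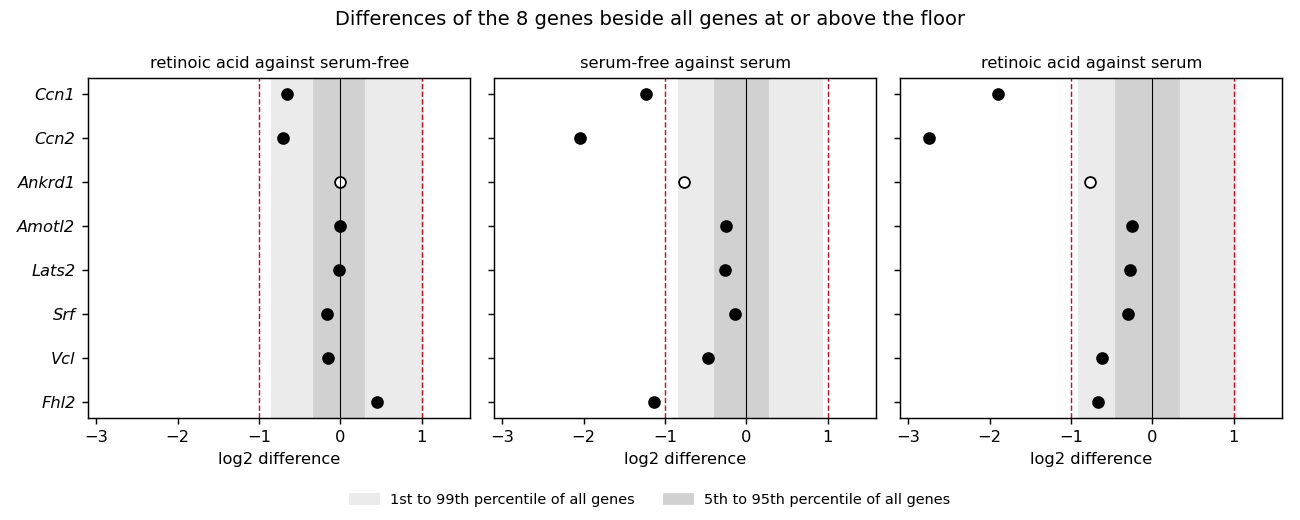
Log2 difference (horizontal axis) of each gene in the 3 comparisons. Grey bands span the 1st to 99th and the 5th to 95th percentile of all genes at or above the floor, dashed lines mark 2-fold, and the open circle is Ankrd1, which lies under the floor. Ccn1, Ccn2 and Fhl2 lie left of the wider band in serum-free medium against serum, and Ccn1 and Ccn2 do so in retinoic acid against serum.

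Ccn1 and Ccn2 encode secreted matricellular proteins that bind integrins and heparan sulphate, and they are the most used reporters of YAP activity. Ccn2 was at 8.27 with retinoic acid, 8.98 in serum-free medium and 11.03 in serum, or 310, 506 and 2087 in intensity. The serum array stood far above the others, and the retinoic acid array was the lowest. In serum-free medium against serum Ccn2 differed by -2.05, which ranked 10 from the lowest of 10156 genes. The value in retinoic acid against serum was -2.75, which ranked 4 from the lowest of 10169 genes.

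Ccn1 was at 8.39 with retinoic acid, 9.05 in serum-free medium and 10.28 in serum, or 335, 529 and 1245 in intensity. It had the same order of media as Ccn2, over a smaller range (1.90 against 2.75). Its difference in serum-free medium against serum was -1.24, with 0.433% of genes lower than it. With retinoic acid against serum-free medium the differences were -0.66 for Ccn1 and -0.71 for Ccn2, short of 2-fold. Only 1.64% and 1.36% of genes had a lower value there than Ccn1 and Ccn2. At a threshold of 1.5-fold these genes were the 2 of the 8 counted as lower with retinoic acid, where 1.94% of all genes met that rule.

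The other genes of the CCN family had smaller differences without serum. Ccn3, another matricellular family member, was at 5.20 with retinoic acid, 6.69 in serum-free medium and 7.08 in serum, all under the floor. Ccn4, a target of Wnt signalling, was at 7.49, 7.79 and 8.10 in the same order of media. Ccn5 and Ccn6 lay under the floor, and each spanned at most 0.02 over the arrays. Of the 6 family genes, the 2 that were at least 2-fold lower in serum-free medium against serum were Ccn1 and Ccn2.

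Ankrd1 encodes an ankyrin repeat protein of the nucleus and the muscle sarcomere and is another standard YAP reporter. It was at 5.10 with retinoic acid, 5.10 in serum-free medium and 5.86 in serum, or 34.2, 34.2 and 58.3 in intensity. All 3 values were under the floor, where background makes up much of the signal. The difference of -0.77 in serum-free medium against serum became -0.45 with 32 added to the intensities. Its relatives Ankrd2 and Ankrd23 each had 1 value on all 3 arrays, 6.10 and 6.89.

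Amotl2 and Lats2 are YAP targets whose proteins restrain YAP, the first as an adaptor that holds it at cell junctions and the second as its kinase. Amotl2 was at 7.46 with retinoic acid, 7.46 in serum-free medium and 7.71 in serum. Lats2 was at 8.59, 8.60 and 8.86 in the same order. Both were slightly higher in serum, by 0.25 and 0.26 over serum-free medium, and neither separated the other media. In that comparison 9.94% of genes had a lower difference than Amotl2 and 8.89% a lower one than Lats2. The paralogues did not share this order. Lats1 was at 10.36, 10.19 and 10.18, Amot at 8.55, 8.45 and 8.30, and Amotl1 at 9.45, 9.10 and 9.14, with retinoic acid, in serum-free medium and in serum.

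Exact equality, as for Ankrd1 and Amotl2 with and without retinoic acid, is a feature of these values. The method that summarises the probes of a probe set often returns the same number for different arrays. Among genes at or above the floor, 35.4% had a difference of exactly 0 between retinoic acid and serum-free medium, and 29.5% between serum-free medium and serum. A difference of exactly 0 is therefore no measure of equal expression.

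The promoters of the YAP targets are shown for the TEAD motif GGAATG, which reads CATTCC on the other strand. Of the 8 genes, 7 had a window in the RefSeq promoter table (build GRCm38.p6), which runs from 250 bases before to 50 after an annotated start site. Ccn2 was not in the table. The motif was in the window of Ccn1, Ankrd1, Amotl2, Lats2 and Vcl, that is 5 of 7 genes, against 16.6% of 27025 genes with a window. Ankrd1 held it 2 times, starting 210 and 123 bases before the start site. The motif began 103 bases before the start of Ccn1 and 65 bases before that of Amotl2. In Lats2 it lay past the start site of one of 2 annotated starts, and the other had no match. A longer form, GGAATG with a T on either side, searched on both strands, was in 0 of the 7 genes and in 1.57% of all. The stretches are given on the strand of the gene, 5′ to 3′, with the motif in capitals.
Ccn1, chr3:145650063-145650108, minus strand: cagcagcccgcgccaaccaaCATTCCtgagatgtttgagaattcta
Amotl2, chr9:102717719-102717764, plus strand: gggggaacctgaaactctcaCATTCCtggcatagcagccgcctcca
Ankrd1, chr19:36119942-36120074, minus strand: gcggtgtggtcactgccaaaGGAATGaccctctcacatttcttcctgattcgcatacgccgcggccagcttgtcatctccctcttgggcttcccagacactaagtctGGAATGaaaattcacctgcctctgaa
Lats2, chr14:57746104-57746129, minus strand: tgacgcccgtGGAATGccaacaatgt
A match is a run of letters and not a measured binding site. The genes were chosen as known readouts of YAP and SRF, so the share with a motif tests nothing. The genes with the motif differed by between -1.24 (Ccn1) and -0.25 (Amotl2) in serum-free medium against serum.

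Srf, which encodes the transcription factor itself and is a target of its own protein, was at 9.34 with retinoic acid, 9.50 in serum-free medium and 9.63 in serum. The values stepped down in the same order as Ccn1 and Ccn2 but over a range of only 0.30. In serum-free medium against serum Srf differed by -0.14, and 21.8% of genes had a lower difference.

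Vcl encodes vinculin, which links integrin and cadherin complexes to actin filaments. It was at 8.65 with retinoic acid, 8.79 in serum-free medium and 9.26 in serum, or 401, 444 and 614 in intensity. Serum was the highest, and retinoic acid lay slightly under serum-free medium. Vcl differed by -0.47 in serum-free medium against serum and by -0.61 in retinoic acid against serum, with 3.34% and 2.59% of genes lower. At 1.5-fold it joined Ccn1, Ccn2 and Fhl2 as the 4 of 8 genes lower with retinoic acid than in serum, where 2.84% of all genes were.

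Fhl2 encodes a LIM-domain scaffold protein that binds integrins and transcription factors and is induced through SRF. It was at 8.16 with retinoic acid, 7.70 in serum-free medium and 8.83 in serum, or 285, 208 and 455 in intensity. Its order of media differed from the others, since the lowest value was in serum-free medium and not with retinoic acid. The difference in serum-free medium against serum was -1.13, with 0.571% of genes lower. Between retinoic acid and serum-free medium it was 0.46, with 96.7% of genes lower. Fhl1, a relative expressed in muscle, was at 8.73 with retinoic acid, 8.96 in serum-free medium and 9.59 in serum, with the lowest value on the retinoic acid array. Fhl3 was at 9.56, 9.70 and 9.86, and Fhl4 and Fhl5 each had 1 value on all arrays, under the floor.

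The SRF targets are shown for the CArG box, read as CC, then 6 bases that are each A or T, then GG, the same on both strands. It was in the windows of Srf, Vcl and Fhl2, that is 3 of the 7 genes, against 1.81% of all genes with a window. Srf held 2 boxes, starting 82 and 62 bases before its start site. Fhl2 held 1 at each of its 2 annotated starts, 96 and 31 bases before them. In Vcl the box began 227 bases and a TEAD motif 143 bases before the start, and no CArG box overlapped a TEAD motif in these windows. All 7 genes held at least 1 of the motifs, as did 18% of all genes. Because the genes were chosen as known YAP and SRF readouts, these shares test nothing.
Srf, chr17:46556195-46556264, minus strand: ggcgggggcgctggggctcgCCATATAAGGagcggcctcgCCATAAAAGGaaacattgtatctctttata
Vcl, chr14:20929151-20929280, plus strand: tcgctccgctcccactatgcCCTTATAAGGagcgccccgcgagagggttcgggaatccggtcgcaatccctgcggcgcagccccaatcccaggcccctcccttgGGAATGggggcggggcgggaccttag
Fhl2, one start, chr1:43196828-43196877, minus strand: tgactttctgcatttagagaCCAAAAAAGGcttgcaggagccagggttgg
Fhl2, the other start, chr1:43163963-43164012, minus strand: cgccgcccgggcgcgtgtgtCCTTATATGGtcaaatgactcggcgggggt
The capitals mark the CArG boxes and, in Vcl, the TEAD motif as well. The number of boxes did not order the genes by size of difference, since Srf with 2 boxes in 1 window had the smallest of the 3 in serum-free medium against serum.

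**Figure D3:**
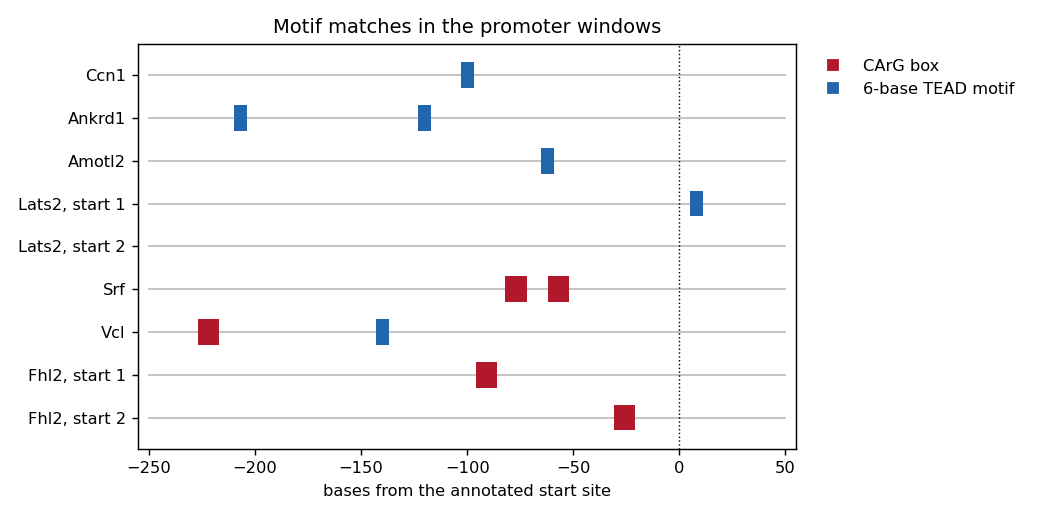
Matches of the CArG box (red) and of the 6-base TEAD motif (blue) in the promoter windows of the 7 genes found in the table, by distance in bases from the annotated start site (dotted line). Srf and Fhl2 hold CArG boxes within 100 bases of a start, Vcl holds both motifs, and one start of Lats2 holds neither.

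The regulators themselves had small ranges over the media. Yap1 was at 10.51 with retinoic acid, 10.36 in serum-free medium and 10.41 in serum. Wwtr1, which encodes TAZ, was at 8.94, 9.10 and 9.10, and Tead1 at 10.76, 10.74 and 10.80. The other TEAD genes each had a range of at most 0.15, and Tead4 lay under the floor. Of 20 measured genes of the Hippo pathway, 0 differed 2-fold in either direction in serum-free medium against serum, with a median difference of -0.02. The largest differences were in Frmd6, which encodes a FERM-domain protein upstream of the kinases, at -0.42, and Wwc2, which encodes a WW-domain scaffold, at -0.30. For retinoic acid against serum-free medium the count was also 0 in each direction, with Amotl1 at 0.34 and Wwc2 at -0.23.

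Among the 6 SRF cofactor genes, Mrtfb, which encodes an actin-regulated coactivator, was at 10.21 with retinoic acid, 9.88 in serum-free medium and 9.67 in serum. Its order was the opposite of that of Ccn1 and Ccn2. Mrtfa, Elk1 and Elk4 each had 1 value on all 3 arrays, Elk3 spanned 0.04, and Myocd, the smooth muscle coactivator, lay under the floor. For the cofactors 0 differences reached 2-fold in any of the 3 comparisons.

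Other YAP targets did not share the size of difference of Ccn1 and Ccn2. Of 17 further genes of a published YAP signature, 0 were lower by 2-fold and 1 was higher in serum-free medium against serum, and their median difference was 0.00. The higher one was Foxf2, which encodes a forkhead factor of mesenchyme, at 6.86 with retinoic acid, 7.20 in serum-free medium and 5.62 in serum, so that it passed the floor on the serum-free array alone. F3, which encodes tissue factor, was at 7.64, 7.38 and 8.15, with a difference of -0.78. Igfbp3, which encodes a binding protein of insulin-like growth factors, was at 11.82, 11.73 and 11.22, highest where Ccn2 was lowest. With retinoic acid added, 0 of the 17 differed 2-fold from serum-free medium, with the guanine exchange factor gene Dock5 at -0.69 and the growth factor gene Tgfb2 at 0.60.

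Cytoskeletal targets of SRF were divided. Of 22 measured, 5 were at least 2-fold lower in serum-free medium than in serum and 0 were higher, with a median of -0.16 against -0.004 for all genes. The 5 were the smooth muscle genes Cnn1 (calponin), Actg2 (another smooth muscle actin), Tagln (transgelin), Acta2 (smooth muscle actin) and Myl9 (a myosin light chain), Myl9 being named after its values were seen. The serum-free values of Cnn1 (6.79) and Actg2 (7.07) lay under the floor. Myl9 was at 9.13 with retinoic acid, 9.78 in serum-free medium and 10.99 in serum, the same order as Ccn1 and with differences of -0.65 and -1.21 for its 2 steps. The other measured members spanned at most 0.95 over the arrays. Actb, the main cytoplasmic actin, was at 13.61 on every array, and Actn1, Cnn2 and Tpm1, a tropomyosin gene, spanned 0.32, 0.28 and 0.85, these 4 being named after their values were seen. Between retinoic acid and serum-free medium 2 of the 22 were at least 2-fold lower with the larger value at or above the floor, Acta2 and Tagln, and 0 were higher. Actg2 at -1.40 and Cnn1 at -1.02 differed by that size under the floor on both arrays. Retinoic acid against serum gave 5 lower, namely Cnn1 at -3.77, Actg2 at -3.58, Tagln at -3.23, Acta2 at -2.70 and Myl9 at -1.86. With retinoic acid, Tagln (6.52), Cnn1 (5.77) and Actg2 (5.67) did not reach the floor, so the sizes of these 3 are uncertain. In the same comparison 0 of the 20 Hippo pathway genes and 0 of the 17 signature genes met the size rule, Foxf2 differing by 1.25 with both values under the floor.

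CArG boxes were in the windows of 7 of the 20 cytoskeletal targets found in the promoter table, against 1.81% of all genes with a window. The list was made of known SRF targets, so this count tests nothing. Myl9 and Fhl1 are shown because, of the measured genes with a box, they differed most in serum-free medium against serum (-1.21 and -0.63).
Myl9, chr2:156775283-156775332, plus strand: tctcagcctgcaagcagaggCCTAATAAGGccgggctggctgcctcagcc
Fhl1, chrX:56779561-56779610, plus strand: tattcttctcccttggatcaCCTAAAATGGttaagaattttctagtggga
Capitals mark the CArG box. In serum-free medium against serum, Cnn2, Actc1, Filip1l and Acta1, the other measured genes with a box, differed by -0.21, -0.14, -0.12 and -0.08. Acta1 lay under the floor, and these genes were named after their values were seen. Acta2, which had no match in this window, differed by -1.31. Actb, Actg2 and Tagln were not in the promoter table. The search took only the exact pattern, so a box with another base inside was not found. Whether a box goes with the difference was not tested.

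The immediate early genes are the other arm of SRF, driven mainly with its TCF cofactors soon after a stimulus. Of 8 measured, 0 differed 2-fold in serum-free medium against serum, and the median was 0.00. Egr1, a zinc finger factor, was at 9.62 with retinoic acid, 10.18 in serum-free medium and 10.12 in serum. Fos, Fosb, Junb and Ier2 lay under the floor on all arrays. The 16 measured focal adhesion genes, vinculin included, had a median of -0.05 in that comparison, with 0 at 2-fold. After Vcl the largest difference was in Actn1, which encodes an actin cross-linker, at -0.32.

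**Figure D4:**
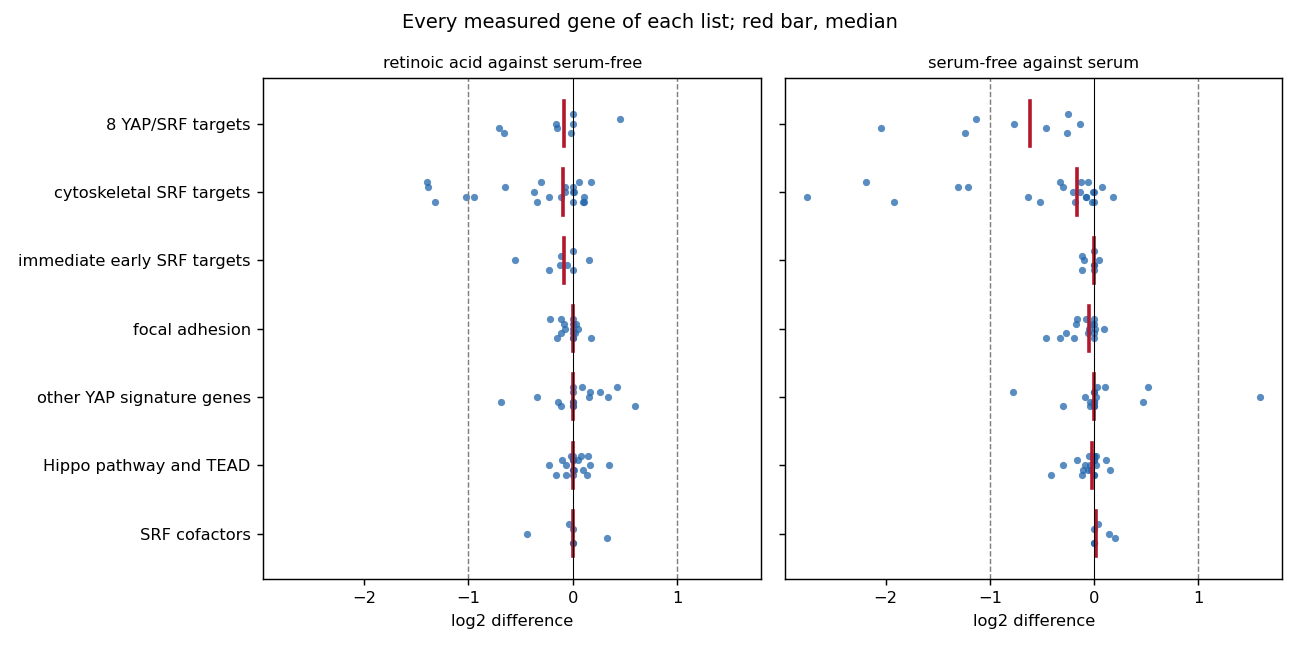
Log2 difference (horizontal axis) of every measured gene, by list, in retinoic acid against serum-free medium (left) and in serum-free medium against serum (right). Red bars are medians and dashed lines mark 2-fold. In serum-free medium against serum the 8 genes have a median of -0.62 and the Hippo pathway list one of -0.02.

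The 8 genes together had a median difference of -0.62 in serum-free medium against serum, of -0.08 in retinoic acid against serum-free medium and of -0.64 in retinoic acid against serum. Over the 7 at or above the floor the medians were -0.47, -0.15 and -0.61, and over all genes at or above it they were -0.004, 0.00 and -0.005. The members had been picked with earlier results of these arrays known, so these medians describe them and test nothing.

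The genes with a pattern most like that of Ccn2, which had the largest range of the 8, were found by the Euclidean distance between log2 values over the 3 arrays, after subtracting each gene's serum value. Among 10014 genes at or above the floor on at least 1 array, gene models and genes with only a clone name left out, the nearest was Map3k7cl at a distance of 0.24. It was followed by the amino acid transporter gene Slc7a3 at 0.46, Tagln at 0.50, the carbonic anhydrase gene Car4 at 0.67, Igfbp7 at 0.71 and Acta2 at 0.74. Igfbp7, which encodes a secreted binding protein, was at 9.55 with retinoic acid, 9.52 in serum-free medium and 11.59 in serum. Slc7a3, at 6.34 with retinoic acid, 6.40 in serum-free medium and 8.84 in serum, likewise had close values in the first 2 media, whereas those of Tagln were 6.52, 7.84 and 9.76. Ccn1 was at rank 10 by this distance (1.18), Fhl2 at rank 71 (2.27) and Srf at rank 1209 (3.11). The measure rests on 3 arrays. Map3k7cl, Slc7a3 and Car4 lay under the floor in both media without serum, and Tagln did so with retinoic acid, so their distances and the order among them are uncertain.

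**Figure D5:**
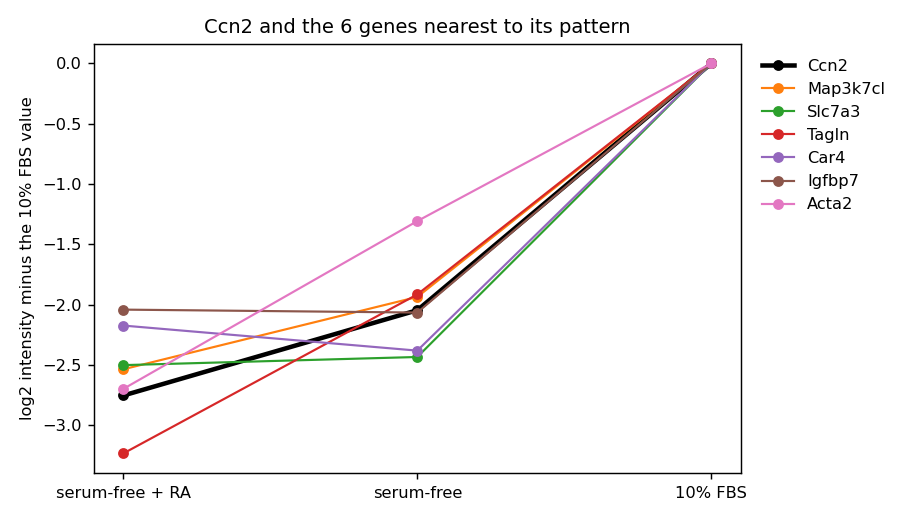
Log2 intensity minus the serum value (vertical axis) on the retinoic acid, serum-free and serum array (left to right) for Ccn2 (black) and the 6 genes nearest to it. Ccn2 is at -2.75 with retinoic acid and -2.05 in serum-free medium, and Acta2 has the shallowest value in serum-free medium, at -1.31.

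Markers of the kidney and of other cells of the explant differed between the same arrays. Of 10 kidney markers, 2 were at least 2-fold lower in serum-free medium than in serum, Pax8 (-1.17) and Ret (-1.16), and 0 higher. Pax8 was at 10.15 with retinoic acid, 9.45 in serum-free medium and 10.62 in serum, the same order of media as Fhl2. Ret was at 9.92, 8.42 and 9.58 on these arrays, likewise lowest in serum-free medium. Ret was also the 1 kidney marker at least 2-fold higher with retinoic acid than in serum-free medium, and 0 were lower. Of 7 smooth muscle markers, 4 were at least 2-fold lower in serum-free medium than in serum, namely Acta2, Actg2, Tagln and Cnn1. The same 4 genes are among the 5 lower cytoskeletal SRF targets above, so the counts are not separate observations. The summed intensity of the 7 was 2249 with retinoic acid, 3909 in serum-free medium and 9032 in serum, in the order of Ccn1 and Ccn2. Acta2 alone gave 843, 2211 and 5468 of these sums. The 4 lower genes each had that order. Des, at 9.29, 9.33 and 9.29, and Smtn, at 9.04, 9.03 and 9.23, did not. Myh11, the smooth muscle myosin gene, lay under the floor on every array. Of 8 macrophage markers, 8 were at least 2-fold higher in serum-free medium than in serum, with sums of 5153, 7188 and 2250. Of 8 endothelial markers 0 were, with sums of 7409, 8765 and 6244. All 8 endothelial markers were nonetheless higher in serum-free medium than in serum by some amount, with a median difference of 0.49. Of all genes at or above the floor, 1977 of 10156 were. Xist, the RNA of the inactive X chromosome, was at 9.79, 11.48 and 10.84, and the Y-linked gene Uty at 8.38, 7.29 and 7.93. The part of these cell types and of embryo sex in the differences of the 8 genes was not tested.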

How the data were processed

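Total RNA (250 ng) of kidney explants was hybridised to 3 arrays, 1 per medium. The authors deposited 1 linear intensity per probe set and array, made with Affymetrix Expression Console 1.1 and RMA, per the submitters' processing notes. Its log2 was used as it stood. The platform annotation names a single gene for 21789 of 35556 probe sets, of which the one with the highest mean represented a gene. Differences were judged by size alone, at least 2-fold with the larger value at or above the median of gene-level values (7.12, or 140 in intensity), since 1 array per medium allows no test. The calling code was run on simulated arrays with planted differences larger than 2-fold and an assumed noise. That checks the code and not the error of these arrays. Named genes were the 8 members, their families and regulators, and the 6 nearest patterns. In each comparison up to 4 genes of each list at 2-fold were added. Where fewer than 2 reached it, the 2 genes at or above the floor with the largest differences were named. Cell type and sex markers were picked from their lists without a rule. Others are marked in the text as named after their values were seen. The members and lists were chosen with earlier results of these data known. Motifs were searched in the RefSeq promoter table of GRCm38.p6. Protein identity, planned at the start, was not computed. Alternatives used another floor, fold, added constant, probe set rule and scaling (limma 3.58.1 in R 4.3.3). The rest was computed with Python 3.11.15, numpy 2.4.6 and pandas 2.3.3. The number of arrays limits the precision.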

Additional observations from a re-analysis of the deposited data

How the results depend on the processing

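No paired analysis was possible because each medium has 1 array. The counts of genes at least 2-fold different among the 8 were the same as reported with 32 added to the intensities, cyclic loess and median centring. They were also the same under the other floors and the mean of all probe sets, which could not change them. Each of the 8 has 1 probe set, and the lower floors admit only Ankrd1, which differed by less than 2-fold. At 1.5-fold, 2 were lower in retinoic acid against serum-free medium and 4 in retinoic acid against serum, in place of 0 and 2. At that threshold 244 genes were higher and 196 lower in retinoic acid against serum-free medium (106 and 62 at 2-fold), 204 and 210 in serum-free medium against serum (89 and 71), and 250 and 289 in retinoic acid against serum (106 and 83). In the absence of replicates, a change was set against the disagreement between probe sets of 1 gene, whose 95th percentile was 0.28 to 0.33. Of 96 recomputed differences of the 8 genes, 95 moved by less than that, Ankrd1 in serum-free medium against serum (-0.45) being the exception. The 96 include 24 from the mean of all probe sets, which could not move. Median centring moved every gene of a comparison by the same amount. The disagreement itself comes from other genes, since each of the 8 has 1 probe set. The median of the 8 ranged from -0.62 to -0.44 in serum-free medium against serum, from -0.08 to -0.07 in retinoic acid against serum-free medium and from -0.64 to -0.51 in retinoic acid against serum. Signal under the floor limits Ankrd1, and the single array per medium limits every value.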

Other observations

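Targets of TGF-beta, another signal that induces Ccn2 in many cells, differed little. Of 7 measured, 0 differed 2-fold in any of the 3 comparisons. Smad7, which encodes an inhibitor of the pathway, was at 8.57 with retinoic acid, 8.28 in serum-free medium and 8.72 in serum, the same order of media as Fhl2 and not that of Ccn2. Fn1, which encodes fibronectin, was at 11.47, 11.47 and 11.62, and Tgfbi, which encodes a secreted matrix protein, at 12.06, 11.86 and 11.82.

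The genes nearest to the median pattern of the 8, all at distances of 0.02 to 0.04, were Foxq1, Snhg17, Kdelr3, Tm7sf2, Mthfd2 and Tmem97, and none of them is in the YAP or SRF lists used here. That pattern includes Ankrd1, which lay under the floor. Foxq1 was at 6.67 in both media without serum, under the floor, and at 7.30 in serum, so its place is uncertain. Kdelr3, which encodes a retrieval receptor of the endoplasmic reticulum, was at 9.14 with retinoic acid, 9.20 in serum-free medium and 9.78 in serum. Mthfd2, a mitochondrial folate enzyme gene, was at 9.37, 9.45 and 10.02.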
